A study of Mus musculus with 6 samples.

Results

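Described here are the microarray probes for PIWI-interacting RNAs (piRNAs) that were brighter, by a set margin of 0.5 on a log2 scale, on every array of cells given high glucose with palmitate than on any array of untreated cells. Of 41069 piRNA probes on the array, 308 met this condition. The series holds 3 arrays of neonatal mouse cardiomyocytes given high glucose with palmitate (treated replicates 1, 2 and 3) and 3 arrays of neonatal mouse cardiomyocytes with no treatment (untreated replicates 1, 2 and 3). The labels give 40 mM glucose and print the palmitate dose as 300 mM, which is repeated as labelled. They give no strain, exposure time or vehicle, and do not say whether replicates came from separate cultures, so the spread between arrays may be technical.

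piRNAs are short RNAs bound by PIWI proteins, a branch of the Argonaute family. In the germ line they guide PIWI proteins to transposon transcripts and silence them, and most of what is known of them comes from that tissue. Palmitate is a saturated fatty acid, and high glucose given together with it is used on cultured heart muscle cells to imitate the fuel overload of diabetes.

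Values are log2 processed intensities (spot brightness after the scanner software's background subtraction) minus the 75th percentile of that array's piRNA probes, so 0 marks a spot as bright as that percentile on its array. The probes were selected on these values and on the scanner software's detection flag. A probe was taken when its spot was well above background on all 3 treated arrays, when its lowest treated value exceeded its highest untreated value by 0.5 or more, and when it lay below 5 on at least 1 array. That last condition removed no probe, and the 308 probes reached at most 2.15 on any array. Because these values chose the probes, their differences between groups are given as a description, with no test. Probes are named by the array design's own ID. Names, sequences, genome positions and host genes of the piRNAs are not used here, and for the same reason the labelled cell type could not be checked against marker genes.

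Per the file headers, treated replicate 1 and the 3 untreated arrays share 1 scan (slide 1), with array positions 1 to 4. Treated replicates 2 and 3 come from another scan with positions 1 and 2 (slide 2). Limma was run on 33569 probes, those with every spot of a group well above background in either group. Over these, treated replicate 1 correlated at 0.814 and 0.772 with the other treated arrays, and at 0.954, 0.971 and 0.830 with untreated replicates 1, 2 and 3. Treated replicate 1 thus lay closer to the untreated arrays of its own slide than to the other treated arrays. For untreated replicate 3 the distance was small, at 0.830 against 0.814. That array correlated at 0.87 and 0.86 with untreated replicates 1 and 2, and treated replicates 2 and 3 correlated at 0.983. No array of untreated cells was on slide 2. The median difference, and that of most probes named below with untreated spots above background, is therefore also given for slide 1 alone, as treated replicate 1 minus the untreated mean. It rests on 1 treated array, which the selection requires to exceed every untreated array by 0.5 or more. Slide 1 differences are thus positive by choice, with a lowest value of 0.54, and are no separate check.

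The 308 probes were 1.01% of the 30453 probes well above background on all treated arrays. Without any margin, treated values lay above untreated ones for 1956 probes, or 6.42%. The mirrored condition, lower on every treated array by 0.5 or more, was met by 433 probes, 1.33% of those well above background on all untreated arrays. The set of higher probes was thus somewhat smaller than the set of lower ones. Limma's test over all 33569 probes called none higher at an adjusted p under 0.05, that is 0% (smallest adjusted p = 0.356 over both directions). At an unadjusted p under 0.05 it gave 1250 higher probes, 3.72%, and all 308 were among them, which the way they were chosen favours. Without treated replicate 1 limma called 5072 higher and 6671 lower probes of the 33569 at the adjusted threshold, with both treated arrays then on slide 2. The balance of directions at the unadjusted threshold depended on the scaling, with 1250 higher and 3227 lower probes as scaled here, 2519 and 2668 after quantile normalization, and 10647 and 329 without scaling. Single arrays left out gave 444 to 6868 higher probes there.

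The count depended on treated replicate 1. Taken alone on slide 1, that array exceeded every untreated array by 0.5 or more at 1247 probes, 3.90% of those well above background on it. The slide 2 pair did so at 5616 probes, 16.0% of those well above background on both arrays. The 308 probes are the ones found both ways, 24.7% of the slide 1 list and 5.48% of the slide 2 list. Both lists use the same untreated arrays, so their overlap is given as a count only. Without untreated replicate 3 the condition was met by 607 probes, and leaving out any other single array except treated replicate 1 gave 324 to 433.

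Across the 308 probes the treated mean lay between -2.25 and 1.88, with a median of -0.44. The untreated mean lay between -4.30 and 0.80, with a median of -1.62. In order of treated mean the median probe stood at the 65.1th percentile of all piRNA probes, and in order of untreated mean at the 30.0th percentile. The median probe was thus of middle brightness in treated cells and dim in untreated cells, a direction that the selection favours. All 6 arrays were below their 75th percentile for 193 of the 308 probes, all treated arrays were above it for 60, and all 6 arrays for only 6.

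By array, the median of the 308 probes was -0.58, -0.42 and -0.30 on treated replicates 1, 2 and 3, and -1.73, -1.59 and -1.52 on untreated replicates 1, 2 and 3. The median over all piRNA probes was -1.11, -0.83 and -0.82 on the treated arrays, and -1.07, -0.99 and -0.87 on the untreated ones. As processed intensity, the 308 probes had a median of 144, 225 and 210 on treated replicates 1, 2 and 3. The untreated arrays had medians of 43.5, 57.1 and 48.3 in the same order of replicates. The signal of a bulk culture cannot tell fewer cells of a type from less RNA per cell.

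The treated minus untreated difference had a median of 1.17 on the log2 scale, a 2.25-fold higher mean. It was 1.14 with the 22 probes undetected on every untreated array set at the lower bound described below. The median over all 33569 tested probes was -0.12. Among the 218 probes well above background on all 6 arrays the median fold was 2.14, and 148 of them (67.9%) had at least 2-fold higher means. Only ASPI360254P of these 218 was at least 4-fold higher, and its spot on treated replicate 1 carried a flag for uneven pixels. On slide 1 alone the median difference was 1.04, and for the slide 2 pair against the same untreated arrays it was 1.21. The 2 comparisons share their untreated arrays. The margin between the groups was from 0.5 to under 0.75 for 174 probes, from 0.75 to under 1 for 87 and 1 or wider for 47.

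The treated arrays were close together at most of these probes, which the choice of probes favours. The SD over the treated arrays had a median of 0.16 over the 308 probes, against 0.46 over all tested probes. The SD over the untreated arrays had a median of 0.21, against 0.30 over all tested probes. Treated replicate 1 was the lowest treated array for 184 of the 308 probes (59.7%), between the other treated arrays for 27, and the highest for 97 (31.5%). Among the 30453 probes well above background on all treated arrays it was the lowest for 45.5% and the highest for 49.4%. Untreated replicate 1 was the lowest untreated array for 196 of the 308 probes (63.6%), against 42.2% of those 30453.

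The 3 widest margins belonged to probes with no untreated spot well above background. ASPI381684P had values of -1.60, -2.13 and -1.28 on treated replicates 1, 2 and 3, against -4.58, -4.12 and -4.21 on untreated replicates 1, 2 and 3. Its processed intensities were 71.2, 68.6 and 106 on the treated arrays, against 6.06, 9.92 and 7.48 on the untreated ones. The groups were separated by 1.99. Its level in untreated cells is thus known only as an approximate upper limit. Its treated mean of -1.67 ± 0.43 (SD, n = 3) was at least 2.03-fold higher by the bound described below. The measured untreated mean was -4.30 ± 0.24 (SD, n = 3).

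ASPI268619P had the second widest margin, 1.60. Its values were -1.36, -1.57 and -1.56 on the treated arrays and -4.60, -4.28 and -3.17 on the untreated ones. Its bound was at least 2.29-fold. ASPI213842P, with a margin of 1.55, read -1.88, -0.70 and -1.03 on the treated arrays and -4.69, -3.52 and -3.43 on the untreated ones. Treated replicate 1 was its lowest treated array by a clear distance, and its bound was at least 2.80-fold.

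ASPI330895P was the most even of the probes with a wide margin. Its values were -1.03, -1.02 and -1.08 on the treated arrays and -2.72, -2.69 and -2.60 on the untreated ones. The means were -1.04 ± 0.03 in treated and -2.67 ± 0.06 in untreated cells (SD, n = 3 each), a 3.09-fold difference. Slide 1 alone gave 1.65 on the log2 scale and the slide 2 pair 1.62. Only 1 of its untreated spots was well above background.

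The other 4 probes among the 8 widest margins were well above background on all 6 arrays. ASPI356575P read 0.07, 0.81 and 0.66 on the treated arrays and -1.48, -1.37 and -1.30 on the untreated ones, with a margin of 1.37. Its treated arrays spanned 0.74, and treated replicate 1 was the lowest of them, with a slide 1 difference of 1.45. ASPI282394P read -0.35, -0.59 and -0.56 on the treated arrays and -2.19, -2.12 and -1.94 on the untreated ones. Here treated replicate 1 was the highest, and the slide 1 difference of 1.73 was larger than the slide 2 difference of 1.51. ASPI288588P read 0.24, 0.07 and 0.17 on the treated arrays and -1.58, -1.87 and -1.26 on the untreated ones, a 3.33-fold higher mean, and its slide 1 difference was 1.81. ASPI067574P read 0.19, 0.95 and 0.38 on the treated arrays and -1.35, -1.29 and -1.15 on the untreated ones, a 3.40-fold higher mean, and its slide 1 difference was 1.45. In these last 2 probes the groups were 1.34 and 1.33 apart.

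The 5 brightest of the 308 probes in treated cells had differences from 0.77 to 1.42, on both sides of the median of 1.17 over the 308. ASPI281671P read 1.48, 2.09 and 2.08 on the treated arrays and 0.60, 0.92 and 0.87 on the untreated ones. Its means of 1.88 ± 0.35 in treated and 0.80 ± 0.17 in untreated cells (SD, n = 3 each) were 2.12-fold apart, and its margin of 0.56 was set by treated replicate 1. Its difference was 1.09 over all arrays and 0.68 on slide 1 alone. ASPI013199P read 1.96, 1.64 and 1.54 on the treated arrays and 0.52, 0.79 and 0.30 on the untreated ones. It was highest on treated replicate 1, its fold was 2.26, and its slide 1 difference was 1.42. ASPI266504P read 1.45, 1.80 and 1.83 on the treated arrays and 0.12, 0.29 and 0.40 on the untreated ones, with a 2.68-fold higher mean, a slide 1 difference of 1.18 and the widest margin of the 5 brightest, 1.05. ASPI393035P read 1.53, 1.52 and 1.60 on the treated arrays and 0.64, 0.88 and 0.83 on the untreated ones. Its treated arrays differed by 0.08, its slide 1 difference was 0.74, and its fold of 1.70 was the smallest of these 5. ASPI328122P read 1.51, 1.33 and 1.47 on the treated arrays and 0.23, 0.45 and 0.10 on the untreated ones, and its spot on treated replicate 1, where the difference was 1.25, carried a non-uniformity flag.

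In a further 5 probes the treated arrays were almost identical. ASPI204015P read -0.19, -0.20 and -0.17 on the treated arrays and -0.82, -0.79 and -0.75 on the untreated ones. Both groups were tight, and the fold was 1.51. ASPI107769P read 0.21, 0.24 and 0.25 on the treated arrays and -1.07, -0.90 and -1.11 on the untreated ones, a 2.40-fold higher mean with a margin of 1.11 and a slide 1 difference of 1.24. ASPI000513P read -0.52, -0.52 and -0.49 on the treated arrays and -1.91, -1.74 and -1.58 on the untreated ones, a 2.35-fold higher mean, with a slide 1 difference of 1.22. ASPI039312P and ASPI397063P were 1.83-fold and 1.66-fold higher, with treated SDs of 0.02 each and untreated SDs of 0.12 and 0.19. The treated arrays spanned less than 0.5 for 218 of the 308 probes, and the median difference of those was 1.08.

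Detection differed between the groups within the set, which the choice of the probes favours on both sides. All 308 probes were well above background on the treated arrays by the way they were chosen. On the untreated arrays 219, 283 and 260 of them were so on replicates 1, 2 and 3, that is 71.1%, 91.9% and 84.4%. Over all piRNA probes, with no condition on the treated arrays, the share was 79.9%, 92.6% and 91.0% on those arrays. All untreated arrays detected 218 of the 308 probes, 40 were detected on 2 untreated arrays, 28 on 1 and 22 on none.

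For those 22 probes the bound was at least 1.36-fold in every case, with a median of 1.97-fold, and 10 were at least 2-fold higher. In these bounds an untreated spot counts at its measured value, or at the dimmest detected signal of its array where that is brighter. That signal is not a strict limit of detection, and the spread between treated arrays is not counted, so the bounds are approximate. The largest, at least 4.28-fold, belonged to ASPI052049P, which read 1.16, -1.35 and -1.52 on the treated arrays and -2.41, -2.92 and -3.11 on the untreated ones. Its treated mean of -0.57 ± 1.50 (SD, n = 3) rested on treated replicate 1, whose spot carried a non-uniformity flag, against an untreated mean of -2.81 ± 0.36 (SD, n = 3). ASPI345607P, with a bound of at least 2.58-fold, had the opposite order, at -2.16, -1.07 and -0.74 on the treated arrays and -3.75, -3.15 and -3.04 on the untreated ones. ASPI252371P read -1.90, -1.09 and -1.01 on the treated arrays and -3.50, -3.53 and -3.04 on the untreated ones, with a bound of at least 2.56-fold.

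A small number of probes had a spot on treated replicate 1 far brighter than on the other treated arrays. ASPI340626P read 1.44, -0.83 and -1.03 on the treated arrays and -1.86, -1.90 and -1.83 on the untreated ones. ASPI115666P read 1.81, -0.42 and -0.49 on the treated arrays and -1.65, -1.17 and -1.41 on the untreated ones. ASPI360254P read 1.89, 0.23 and 0.20 on the treated arrays and -1.52, -1.75 and -0.59 on the untreated ones. In each of the 3 the slide 2 arrays lay close together and above the untreated arrays, with treated replicate 1 far higher still, so the slide 2 arrays set the margin and treated replicate 1 raised the mean. Their slide 1 differences were 3.31, 3.22 and 3.18, and their slide 2 differences 0.93, 0.95 and 1.51. Treated replicate 1 exceeded both slide 2 arrays by 1 or more at 7 of the 308 probes, and all 7 of those spots carried a non-uniformity flag on that array.

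That flag, set by the scanner software where the pixels of a spot are uneven, was unevenly shared. It marked 11 of the 308 probes on treated replicate 1 (3.57%) and none of them on the other 5 arrays. Over all 41069 piRNA probes it marked 70 on treated replicate 1 (0.170%) and between 1 and 31 on each other array. Of those 70 spots, 63 exceeded every untreated array by 0.5 or more. Leaving out flagged spots left 297 of the 308 probes.

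The place of the probes on the array was not used to choose them, and it was uneven. The array has 532 rows, taken here as 7 bands of 76, a division made after the values were seen. The bands from the top held 7, 28, 36, 78, 63, 51 and 45 of the 308 probes, while each held between 5651 and 5996 of all piRNA probes. Rows 229 to 380 held 141 of the 308 (45.8%) and 29.1% of all piRNA probes. The same rows held 31.0% of the 5616 probes of the slide 2 list, 30.2% of the 1247 of the slide 1 list and 23.3% of the 433 lower probes. They also held 60 of the 70 flagged spots of treated replicate 1. Rows 1 to 76 held 2.27% of the 308 probes and 13.8% of all piRNA probes.

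Some of the 308 probes lay side by side on the array. Another of the 308 lay within 1 row and 1 column for 97 of them (31.5%), although the array prints each piRNA probe once. For the larger set of 433 lower probes this held for 42 (9.70%). It held for 42.8% of the 1247 probes of the slide 1 list and 67.5% of the 5616 of the slide 2 list, shares that also rise with the number of probes in a list. The higher probes formed 36 touching pairs and 8 patches of 3 or 4, and the lower probes 19 pairs and 1 patch of 4.

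Spots around the 308 probes were brighter on treated replicate 1 as well. For each probe the 12 nearest spots of other piRNA probes, leaving out the 308 themselves, were summarised by their median difference from the untreated mean. On treated replicate 1 this local difference had a median of 0.09 around the 308 probes and of -0.16 around all other piRNA probes. On treated replicates 2 and 3 it was -0.17 and -0.17 around the 308 probes, and -0.16 and -0.16 around the others. It was thus raised around the 308 probes on the 1 treated array of slide 1 and not on the slide 2 arrays. On treated replicate 1 it lay above the median of all other probes for 258 of the 308 (83.8%), and above their 95th percentile of 0.22 for 95 (30.8%).

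At the probes themselves the median difference on slide 1 was 1.04, a value that the selection holds above 0.5. The local difference on treated replicate 1 had a median of 0.09 around them and -0.16 around the others. The margin between the groups was under 0.75 for 174 of the 308 probes. After subtraction of each array's local trend over the 24 nearest spots, 223 of the 308 probes still met the condition and 85 did not. In all, 399 probes met it. The median difference of the 308 was then 1.20. The subtraction also moved the median over all tested probes, from -0.12 to 0.03, so the count and the 1.20 include that upward shift. Around the 97 probes with treated replicate 1 highest, the local difference on that array had a median of 0.15, and around the 184 with it lowest 0.06. Rows 229 to 380 held 40.2% of the 97 probes and 47.8% of the 184. Across the 308 probes the difference on slide 1 and the local difference on treated replicate 1 had a Spearman coefficient of 0.20, which describes spots of shared arrays. The part of position on the array in the choice of the 308 probes was not tested beyond these values.

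Local background brightness at these spots was within 0.5 units of that over all probes on each array. Its median at the 308 probes was 16.0, 13.0 and 13.0 on treated replicates 1, 2 and 3, and 15.0, 15.5 and 15.0 on untreated replicates 1, 2 and 3. Over all piRNA probes it was 16.0, 13.0 and 13.0 on the treated arrays and 15.0 on each untreated array. When all piRNA probes were ordered by the number in their design ID and cut into 10 equal parts, each part held 24 to 36 of the 308 probes.

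Many of the 308 probes kept their margin under several ways of processing, which their choice on the same 6 arrays favours. In the authors' deposited table, which holds all 308, 281 kept a margin of 0.5 and all 308 kept treated values above untreated ones. That table gave 521 probes in all, 1.71% of its probes well above background on all treated arrays. Normexp background correction with an offset of 50, which compresses dim signals, left 63 of the 308 past 0.5 and 298 with groups apart. ASPI330895P then differed by 0.53 and ASPI381684P by 0.56, while the brighter ASPI266504P differed by 1.33.

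A margin of 0.5 or more held in all other scalings and corrections for 50 of the 308 probes, a count taken after the values were seen. These were 6 distinct settings, since the margins of the 308 probes in the authors' deposited table differed by at most 0.0032 from those after quantile normalization. Of these, 47 were well above background on all 6 arrays, 1 carried a flag on treated replicate 1, and 25 lay in rows 229 to 380. Their median difference was 1.30, and the spots around them on treated replicate 1 had a local difference with a median of 0.15. ASPI356575P, ASPI282394P, ASPI288588P and ASPI067574P were the 4 of them with the widest margins. ASPI266504P, ASPI013199P, ASPI000513P and ASPI107769P were also among the 50.

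The threshold had no natural break around it. Just inside, ASPI305946P had a margin of 0.5002, with -0.12, 0.62 and 0.59 on the treated arrays and -1.08, -0.98 and -0.62 on the untreated ones. ASPI055019P had 0.5008 and ASPI372859P 0.5024. Just outside, ASPI103065P had 0.4996, with 0.46, 1.03 and 0.88 on the treated arrays and -0.19, -0.09 and -0.04 on the untreated ones. ASPI024442P had 0.4994 and ASPI013598P 0.4984.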

How the data were processed

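Per the file headers, spot intensity was read with Agilent Feature Extraction 11.0.1.1, the version that the submitters' processing notes also name. Its processed intensity is corrected for background and for trends within an array, and arrays are not scaled to each other. Flags and median spot and local background intensities were deposited too. Cyanine-3 labelled cRNA was amplified from total RNA, per the labels' protocols. The authors also deposited a table of log2 values for 39394 probes, whose steps are not stated and whose margins at the selected probes differ little from those after quantile normalization.

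The log2 of the processed intensity, less the array's 75th percentile, was computed here for 41069 piRNA probes and the probes were selected. The selection and the lists were chosen with earlier results of these data known. Limma 3.58.1 in R 4.3.3 was fitted on probes detected throughout 1 group or both (two-sided, Benjamini-Hochberg). The code was also run on simulated data. These had independent arrays, no slide difference and spreads capped at the median, so they cannot show how the fit performs on these slides. Normexp used median spot and background intensities, offset 50. Other computations used Python 3.11.15. No other split of the arrays was drawn. Probes named in the text were fixed by rank: 8 widest margins, 5 brightest in treated cells, 5 widest margins on slide 1, 5 narrowest treated ranges, 4 largest bounds, 3 on each side of the threshold and 3 with treated replicate 1 furthest above slide 2. The number of arrays limits the precision.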

Additional observations from a re-analysis of the deposited data

Results flagged for a closer look

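Control spots are outside the comparison of piRNA probes, and 3 of the 60 control probes (5%) were brighter on every treated array than on any untreated one. Among piRNA probes well above background on all treated arrays the same held for 1956 of 30453, or 6.42%. That condition was not set on the control probes, some of which are negative controls near the floor, so the shares are not like for like. None of the 60 control probes reached the margin of 0.5. The control probe DCP_22_9, on 2 spots per array, had the widest margin, 0.37. It read -0.09, -0.09 and -0.18 on treated replicates 1, 2 and 3, and -0.95, -0.55 and -0.56 on untreated replicates 1, 2 and 3. DCP_20_3 and DCP_20_0 had margins of 0.14 and 0.13, and in both the slide 2 arrays were higher than treated replicate 1.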

How the results depend on the processing

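The count of 308 probes became 522 with quantile normalization, 521 in the authors' table, 1953 without scaling and 65 with normexp, and the median difference of 1.17 became 1.93 without scaling and 0.60 with normexp. The 75th percentile was 215 to 300 on treated and 138 to 172 on untreated arrays, so leaving out the scaling widens every margin. Without a margin the count was 1956, at a margin of 1 it was 47, and slide 1 alone gave 1247. Leaving out single arrays gave 324 to 5616 probes and median differences of 1.11 to 1.22, and the slide 2 pair, chosen as a setting after seeing the data like the local trend, is the 5616. The other 7 settings for the count gave 218 to 399. Limma's count of higher probes was 0 under 17 of 18 alternatives. It was 5072 without treated replicate 1, beside 6671 lower probes (0 to 5072 higher over single arrays left out). With the replicate number as a block it was 0, with 1602 at an unadjusted p under 0.05 and a smallest adjusted p of 0.267, and a within-number margin of 0.5 was met by 819 probes. Same-numbered arrays deviated together at 0.35, -0.28 and 0.46 for replicates 1, 2 and 3, so the numbers were not taken as pairs. Of 378 differences of the 27 named probes under 14 settings, none turned sign, which their choice favours, and 91 moved by more than the spread between replicates.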
